A study of Mus musculus with 18 samples.

Results

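The genes described here are 10 G protein-coupled receptors by which enteroendocrine cells (EECs), the hormone-secreting cells of the gut epithelium, read the contents of the gut lumen and the signals of neighbouring cells. They are Ffar1, Ffar2, Ffar3, Ffar4, Gpbar1, Gpr119, Gpr142, Casr, Galr1 and Sstr5, found in the deposited count table by gene name, and they make up 10 of its 55335 genes. RNA-seq was performed on small intestinal crypts, the epithelial pits that hold the intestinal stem cells, from PRMT1 fl/fl; Vil-CreERT2 mice (KO) and from PRMT1 fl/fl littermates without the Cre (WT). Prmt1 encodes the main enzyme for asymmetric dimethylation of arginine in proteins. Both genotypes carried the same floxed alleles and both received tamoxifen, 2 mg per injection into the peritoneum, at 8 to 12 weeks of age. The day 2 mice were collected after 2 daily injections and the day 7 and day 14 mice after 5, and each of the 6 groups held 3 mice. CreERT2 was driven by the villin promoter, which is active in the intestinal epithelium and not in EECs alone. How far Prmt1 was deleted in each epithelial lineage was not measured.

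EECs are rare in crypts. Receptors for long-chain fatty acids, bile acids and amino acids on their surface are known to couple to Gq or Gs and to raise the release of GLP-1, PYY, CCK and GIP. The short-chain fatty acid receptor Ffar3 couples to Gi, and Ffar2 to both Gq and Gi. Receptors for galanin and somatostatin couple to Gi and restrain release. Some of these receptors are also present on other cells of the gut wall, including leukocytes and enteric neurons. In bulk crypt RNA, a change in the number of cells that express a gene and a change in the RNA of that gene per cell cannot be told apart.

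The 18 libraries held between 12844642 and 31493484 counts in genes. Prmt1 itself was lower in KO crypts on each day, at 14.4, 15.8 and 15.4 CPM (a count as a share of the normalized library total) on days 2, 7 and 14 against 26.6, 23.8 and 25.3 CPM in WT (edgeR adjusted p = 0.0264, 0.00675 and 0.00329). Markers of the labelled tissue were read in every library: 11 epithelial markers summed to between 11499 and 20567 CPM. They include the crypt genes Lgr5, Olfm4 and Lyz1 but also general epithelial genes and Alpi and Krt20, known from villus enterocytes, which were read as well, so the sum does not show how pure the crypts were. At this depth the receptors were read at low counts. Of the 10 receptors, 7 passed the filter on low counts and were tested among 21349 genes. Casr and Gpbar1 passed the cutoff of 0.471 CPM in 1 library each and Gpr142 in none, against the 3 libraries needed, and these 3 receptors were not tested. Ffar1, Ffar2 and Ffar4 were above the cutoff in all 18 libraries and Ffar3 in 17, whereas Gpr119 passed with 6 libraries. The p-values below come from edgeR's quasi-likelihood F-test and were adjusted over all genes tested by the Benjamini-Hochberg method, with a threshold of 0.05.

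Levels can be compared between genes per exon length, as CPM per kilobase (FPKM). Averaged over the 18 libraries, the long-chain fatty acid receptor Ffar4 stood at 2.13 FPKM and the short-chain fatty acid receptor Ffar2 at 1.12 FPKM. Ffar3 followed at 0.627 FPKM, Ffar1 at 0.428, Sstr5 at 0.324, Galr1 at 0.280, Gpbar1 at 0.193 and Gpr119 at 0.178 FPKM. Casr, at 0.0489 FPKM, and Gpr142, at 0.0319 FPKM, closed the order. The range of each receptor over the 18 libraries overlapped that of the next in this order, as for Ffar4 (1.43 to 3.67 FPKM) and Ffar2 (0.593 to 1.65 FPKM). The lowest library for Ffar4 lay above the highest for Ffar3, which was 1.14 FPKM, but other receptors further apart in the order still overlapped, such as Ffar2 and Ffar1 (0.244 to 0.905 FPKM). This order is that of means over both genotypes, and it turned in some groups. The mean of Ffar1 was above that of Ffar3 in KO day 7 (0.685 against 0.503 FPKM), and the mean of Galr1 above that of Sstr5 in KO day 14 (0.556 against 0.516 FPKM). Gpr119 stood above Gpbar1 in the 3 WT groups and in KO day 2, and above Galr1 in WT day 14. In KO day 7, Gpbar1 stood above Galr1 and Gpr142 above Casr.

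**Figure D1:**
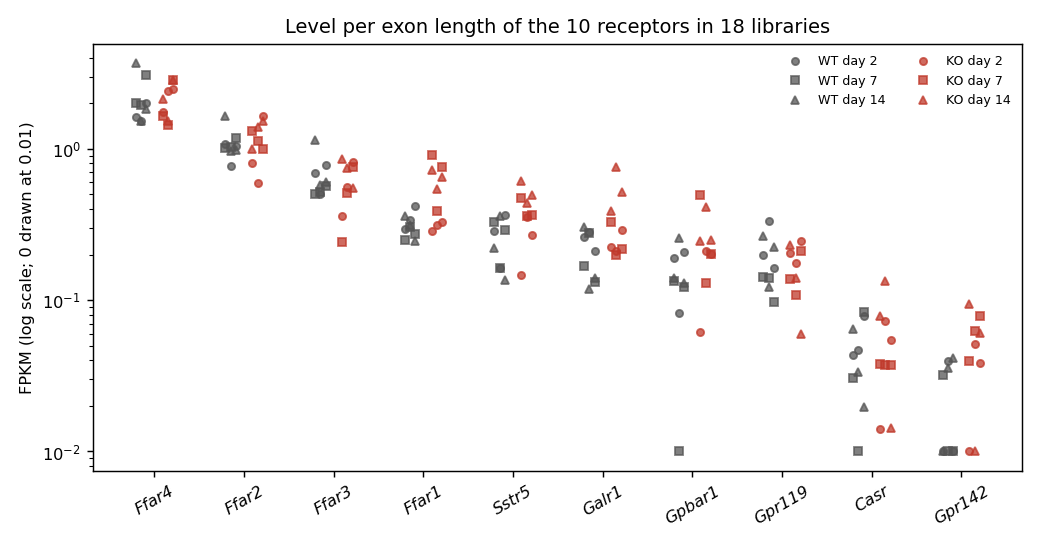
Level of each of the 10 receptors in FPKM (log axis, zeros drawn at 0.01) in the 18 libraries; each point is 1 library, grey for WT and red for KO, with circles, squares and triangles for days 2, 7 and 14. The receptors are ordered by their mean, from Ffar4 at 2.13 FPKM to Gpr142 at 0.0319 FPKM.

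To learn how the receptors differed between the genotypes, KO and WT crypts of the same day were compared. Only the KO mice carried CreERT2, so loss of PRMT1 and activity of the Cre under tamoxifen cannot be told apart. On day 2, none of the 7 tested receptors was called by edgeR or by DESeq2 and none had an unadjusted p under 0.05, which 3.33% of all genes had; edgeR called 7 genes in all, or 0.0328% of those tested. On day 7, 1 receptor was called higher, Ffar1, and none lower; over all genes, 7.11% were called higher and 10.2% lower. On day 14, Ffar1 and Galr1 were called higher and none was lower, where 3.23% of all genes were called higher and 4.69% lower. The median log2 fold change of the 7 tested receptors was -0.08 on day 2, 0.25 on day 7 and 0.15 on day 14, and the median of all genes tested was 0.00, 0.02 and 0.00.

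Ffar1, also called GPR40, is a receptor for medium- and long-chain fatty acids that couples mainly to Gq. On day 7 its level was 3.78, 1.61 and 3.19 CPM in the KO libraries and 1.04, 1.28 and 1.14 CPM in the WT libraries. Every KO library lay above every WT library, with KO replicate 2 the closest. The KO mean was 2.86 ± 1.12 CPM and the WT mean 1.15 ± 0.118 CPM (SD, n = 3), a log2 fold change of 1.31 with a standard error of 0.28 (edgeR adjusted p = 0.00347), or 2.48-fold. On day 14 the KO libraries held 3.00, 2.27 and 2.698 CPM and the WT libraries 1.51, 1.30 and 1.02 CPM, again without overlap. The log2 fold change was 1.07 with a standard error of 0.29 (edgeR adjusted p = 0.0264), or 2.10-fold. On day 2 the groups overlapped, with 1.20 to 1.38 CPM in KO and 1.23 to 1.75 CPM in WT (log2 fold change -0.17, standard error 0.29).

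The day 7 call for Ffar1 was made whichever of the 6 libraries was left out, with adjusted p between 0.000460 and 0.0263. The day 14 call was lost without KO replicate 1 (adjusted p = 0.0980), without KO replicate 3 (0.0675), without WT replicate 2 (0.0705) and without WT replicate 3 (0.101), while the log2 fold change stayed between 0.94 and 1.19.

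Ffar4, also called GPR120, is another receptor for long-chain fatty acids. Its level was 2.31, 2.00 and 4.02 CPM in the KO libraries of day 7 and 2.81, 2.75 and 4.29 CPM in the WT libraries, so the groups overlapped. On day 14 it was 3.00, 2.14 and 3.98 CPM in KO and 5.14, 2.13 and 2.55 CPM in WT, with overlap again. The log2 fold change was -0.25 on day 7 (95% interval -0.94 to 0.43) and -0.07 on day 14 (-0.78 to 0.64), so a change of the size fitted for Ffar1 lay outside both intervals.

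Gpr119, a Gs-coupled receptor for oleoylethanolamide and monoacylglycerols, was read with only 2 to 17 counts per library. Its mean was 0.346 ± 0.121 CPM in KO against 0.287 ± 0.0593 CPM in WT on day 7, and 0.326 ± 0.196 against 0.463 ± 0.169 CPM on day 14 (SD, n = 3). The 95% interval of its log2 fold change ran from -0.77 to 1.27 on day 7 and from -1.44 to 0.64 on day 14. A doubling on day 7 and a halving on day 14 lay inside these intervals, so neither was excluded.

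**Figure D2:**
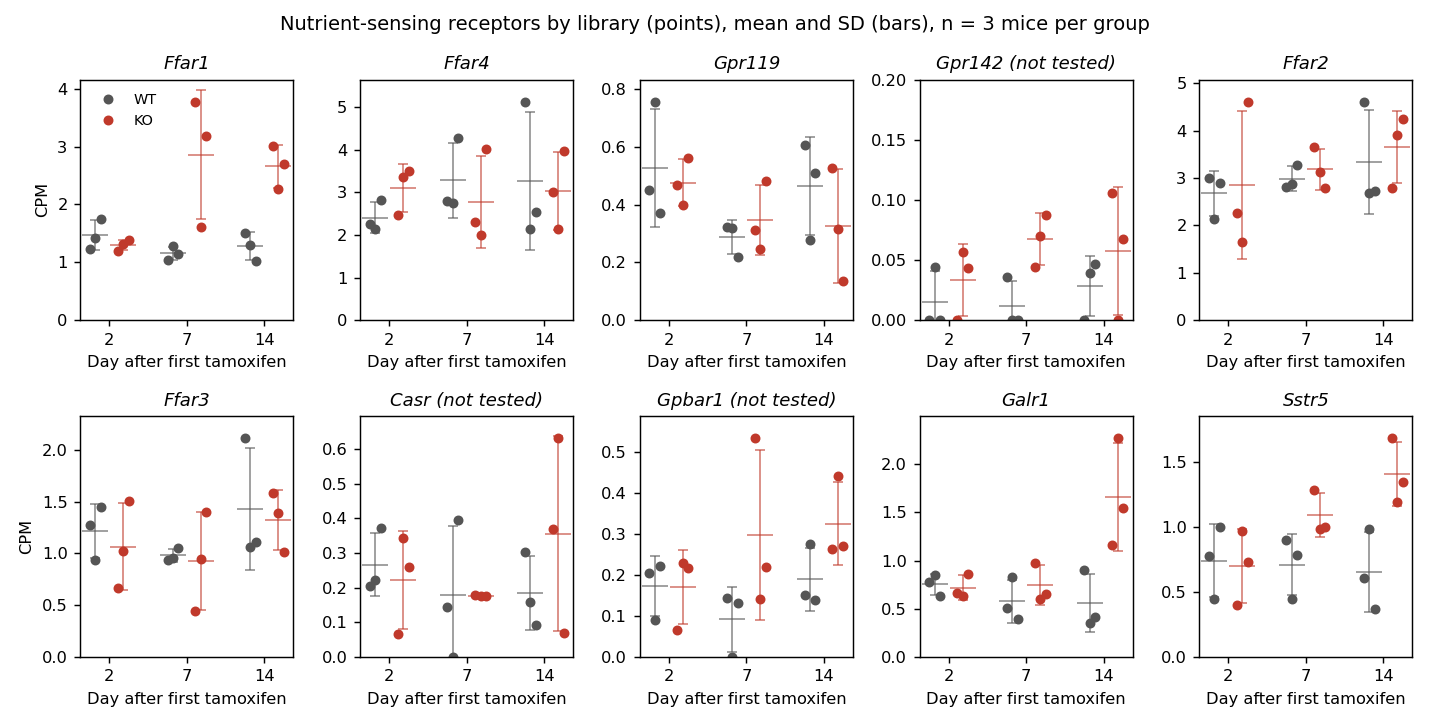
CPM of each of the 10 receptors by day (horizontal axis) and genotype, with 1 point per library, and bars for the mean and SD of 3 mice per group. Ffar1 KO libraries lie above all WT libraries on days 7 and 14, Galr1 on day 14 and Sstr5 on both days, while Ffar2, Ffar3, Ffar4 and Gpr119 overlap throughout.

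Ffar2 and Ffar3 are receptors for acetate, propionate and butyrate, the short-chain fatty acids made by gut bacteria. On day 7 Ffar2 was at 3.65, 3.12 and 2.79 CPM in the KO libraries and 2.81, 2.88 and 3.28 CPM in the WT libraries. On day 14 it was at 2.79, 3.91 and 4.25 CPM in KO and 4.61, 2.68 and 2.73 CPM in WT. The groups overlapped on both days. Ffar2 had a log2 fold change of 0.09 on day 7 (95% interval -0.54 to 0.73) and 0.15 on day 14 (-0.50 to 0.79). Ffar3 averaged 0.930 ± 0.477 CPM in KO crypts and 0.982 ± 0.0613 CPM in WT crypts on day 7, and 1.33 ± 0.290 against 1.43 ± 0.593 CPM on day 14 (SD, n = 3). Its log2 fold changes were -0.08 (95% interval -0.88 to 0.73) and -0.05 (-0.85 to 0.75), and its groups overlapped on every day.

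Ffar2, Ffar3 and Ffar1 lie in this order on chromosome 7, all on the minus strand, at chr7:30818348-30823775, chr7:30854330-30856178 and chr7:30857390-30861564 (mm10). Only 1211 bases separate the end of Ffar1 from the start of Ffar3, while 30554 bases lie between Ffar3 and Ffar2. No exon of the 3 genes overlaps an exon of another gene in the annotation. Within a library, the ratio of counts of neighbouring genes does not depend on the scaling between libraries. In the WT crypts of day 7 there were 1.12, 1.33 and 1.08 Ffar1 counts per Ffar3 count, and in the KO crypts 8.50, 1.70 and 2.28. On day 14 the ratio was 0.714, 1.22 and 0.917 in WT and 1.90, 1.64 and 2.67 in KO. The ratio was thus higher in every KO library than in every WT library on days 7 and 14. On day 2 it overlapped, at 0.968, 1.52 and 1.21 in WT and 1.80, 1.28 and 0.914 in KO. Ffar3 had only 10 to 32 counts in the KO libraries of day 7 and 15 to 26 in WT, and the ratio of 8.50 rests on 10 Ffar3 counts. The ratio uses the same Ffar1 counts as the calls above, and how many other gene pairs separate in this way was not measured. This pair was chosen after its values were seen, and the ratio is given without a test. Cd22, a B cell gene that lies next to Ffar1 on its other side, averaged 3.05 ± 3.79 CPM in KO crypts and 1.41 ± 0.551 CPM in WT crypts on day 7, and at 1.15 ± 0.562 and 2.03 ± 2.13 CPM on day 14 (SD, n = 3).

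Because Ffar1 rose and its neighbours did not pass the test, the DNA just before the start of each is shown, 5′ to 3′ on the minus strand, from the RefSeq promoter table (GRCm38.p6, the assembly of mm10). The capitals mark CATCTG, the reverse complement of CAGATG, an E-box of the form that Neurod1 and related factors bind. The windows are chr7:30861565-30861720 for Ffar1, chr7:30856179-30856428 for Ffar3 and chr7:30823776-30824025 for Ffar2.
Ffar1: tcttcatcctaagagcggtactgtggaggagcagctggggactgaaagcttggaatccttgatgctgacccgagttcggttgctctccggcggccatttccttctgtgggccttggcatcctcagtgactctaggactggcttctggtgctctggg
Ffar3: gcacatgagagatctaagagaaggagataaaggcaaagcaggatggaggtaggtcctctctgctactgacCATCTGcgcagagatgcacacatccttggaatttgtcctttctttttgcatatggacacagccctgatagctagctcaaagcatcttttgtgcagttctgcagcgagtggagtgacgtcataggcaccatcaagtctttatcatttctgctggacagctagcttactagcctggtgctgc
Ffar2: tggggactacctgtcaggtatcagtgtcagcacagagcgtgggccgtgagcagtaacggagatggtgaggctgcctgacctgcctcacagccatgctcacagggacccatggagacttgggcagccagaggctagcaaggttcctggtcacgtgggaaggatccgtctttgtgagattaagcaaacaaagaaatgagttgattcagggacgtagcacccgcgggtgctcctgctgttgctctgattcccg
The Ffar1 window is cut to the 156 bases that lie before the gene in both annotations; the 250 bases before its RefSeq start hold CAGATG once, 59 bases before that start, in the stretch not shown. The Ffar3 window holds the motif once, on the other strand and 180 bases before its start, and the Ffar2 window holds none. Where RefSeq gave several starts, only the window of the most upstream one was read. This was so for Ffar2, with 4 starts, and for Gpr142, with 2, and the windows of their other starts were not read. Of 32851 promoter windows of 250 bases in the table, 14.4% hold this motif on either strand. GTTGCC, a half-site of RFX factors, is in none of these 3 windows, and 10.4% of all windows hold it on either strand. Among the windows read for the other receptors, that of Ffar4 holds GTTGCC 2 times and that of Gpbar1 once. Those of Gpr119, Casr and Gpr142 hold neither motif. A match of letters is a description of the window and not of binding. A window was read for 8 of the 10 receptors, and Galr1 and Sstr5 are named without a sequence.

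The receptors for amino acids, calcium and bile acids were the least read. Gpr142, a receptor for tryptophan and other aromatic amino acids, had at most 2 counts in a library and 0 counts in 7 of 18 libraries, and 3 counts correspond to between 0.105 and 0.227 CPM in these libraries. It was read with 1, 2 and 2 counts in the KO libraries of day 7 and 1, 0 and 0 in WT, all below that limit, so no fold is given. Casr, the calcium-sensing receptor, which also responds to amino acids, had between 0 and 10 counts per library. In KO crypts it averaged 0.176 ± 0.00167 CPM, and in WT crypts 0.179 ± 0.199 CPM, on day 7, and 0.356 ± 0.282 against 0.184 ± 0.107 CPM on day 14 (SD, n = 3). Gpbar1, the bile acid receptor TGR5, had between 0 and 12 counts per library. On day 7 it averaged 0.297 ± 0.208 CPM in KO crypts and 0.0918 ± 0.0797 CPM in WT crypts, with 12, 4 and 5 counts against 4, 0 and 3, and the groups overlapped. In a fit without the filter, none of these 3 receptors was called on any day.

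Galr1, a Gi-coupled receptor for galanin, was the other receptor called. Its KO libraries of day 14 were at 1.16, 2.27 and 1.55 CPM and its WT libraries at 0.907, 0.355 and 0.417 CPM. All KO libraries lay above all WT libraries, and WT replicate 1 was the closest to the KO libraries. The KO mean was 1.66 ± 0.564 CPM and the WT mean 0.560 ± 0.302 CPM (SD, n = 3), a log2 fold change of 1.65 with a standard error of 0.39 (edgeR adjusted p = 0.0115), or 3.13-fold. The WT libraries held only 9 to 12 counts and the KO libraries 22 to 36. The call was lost without KO replicate 2 (adjusted p = 0.0658), without WT replicate 2 (0.0684) or without WT replicate 3 (0.0554), and the log2 fold change stayed between 1.37 and 2.09. On day 7 Galr1 was at 0.978, 0.597 and 0.655 CPM in KO and 0.504, 0.831 and 0.394 CPM in WT, with overlap and a log2 fold change of 0.40 (95% interval -0.42 to 1.22). Gal, the gene of its ligand, had at most 5 counts in any library and was not tested.

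Sstr5, a Gi-coupled somatostatin receptor, did not pass the test on any day. On day 7 it was at 1.29, 0.983 and 1.00 CPM in KO and 0.899, 0.447 and 0.788 CPM in WT, and on day 14 at 1.69, 1.20 and 1.35 CPM in KO and 0.604, 0.987 and 0.371 CPM in WT. The KO libraries lay above the WT libraries on both days. The log2 fold change was 0.57 on day 7 with a standard error of 0.38 (edgeR adjusted p = 0.344) and 1.08 on day 14 with a standard error of 0.39 (edgeR adjusted p = 0.103). Without WT replicate 2 of day 14 the value was 1.58 and passed the threshold (adjusted p = 0.0494). Separation of the groups is common in these data: on day 7 it was seen, with KO higher, for Ffar1, Sstr5 and the 1 or 2 counts of Gpr142, and for 15.9% of all genes tested, and on day 14 for Ffar1, Galr1 and Sstr5 and for 12.4%. Sst, which encodes somatostatin and is made by the D cells of the epithelium, was at 12.3 ± 3.29 CPM in the KO group against 12.02 ± 0.977 CPM in the WT group on day 7, and at 15.5 ± 5.05 against 12.8 ± 3.55 CPM on day 14 (SD, n = 3). Its log2 fold changes were 0.03 and 0.27 (edgeR adjusted p = 0.958 and 0.650).

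**Figure D3:**
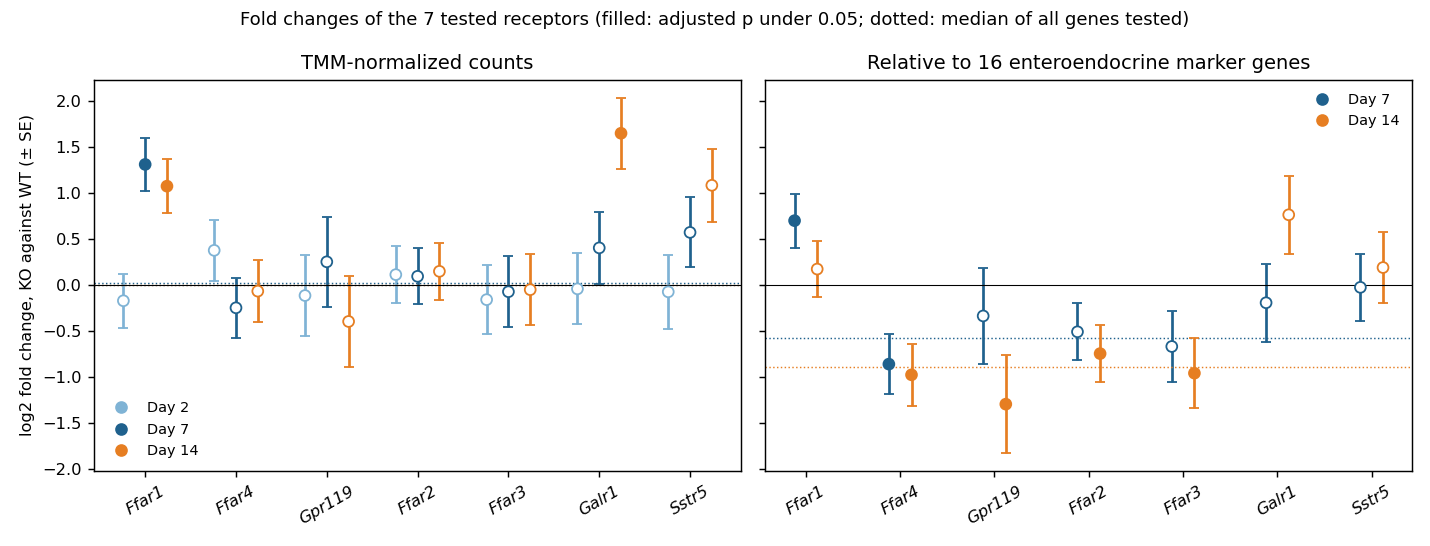
Log2 fold change of KO against WT for the 7 tested receptors with its standard error, by day, from TMM-normalized counts (left) and relative to the mean of 16 EEC marker genes (right); filled points have an adjusted p under 0.05 and dotted lines mark the median of all genes tested. On the left Ffar1 stands at 1.31 and 1.07 and Galr1 at 1.65 on day 14; on the right the median gene stands at -0.58 on day 7 and -0.89 on day 14.

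Whether the effect of the knockout differed between days was tested for each receptor in the same fit. The effect on Ffar1 was larger on day 7 than on day 2 by 1.48 on the log2 scale, with a standard error of 0.41 (edgeR adjusted p = 0.0450), and Ffar1 was the 1 receptor called; 1.33% of all genes were called with a larger effect on day 7 and 3.04% with a smaller one. This call was close to the threshold, and it was lost with the replicate number as a block (adjusted p = 0.0501) and in a fit of the compared groups alone (0.0722). It was made in 1 of the 12 fits that left out a library of these days, that without KO replicate 2 of day 7, and the other 11 gave adjusted p of up to 0.140 with values from 1.24 to 1.595. From day 7 to day 14 no receptor was called, and the edgeR test called 0 of all genes, with 4.46% at an unadjusted p under 0.05; DESeq2 called 2 genes and no receptor. For Galr1 the effect was larger on day 14 by 1.25 with a standard error of 0.56 (edgeR unadjusted p = 0.0370, adjusted p = 0.999), and this difference did not pass the threshold.

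The WT groups show how the receptors varied over time in crypts that kept PRMT1. None of the 7 was called between any pair of days, where edgeR called 0.553% of all genes for days 2 and 7, 1.61% for days 2 and 14 and 0.0796% for days 7 and 14. The log2 differences between WT days lay between -0.85, for Gpr119 from day 2 to day 7 with a standard error of 0.46, and 0.63, for the same gene from day 7 to day 14. For Ffar1 they were -0.36, -0.22 and 0.14, and for Galr1 -0.42, -0.51 and -0.09, in each case within 1.5 standard errors of 0. These WT changes are those of the controls against which each KO group was read.

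EEC genes as a group were also higher in the KO crypts, and the values stand here beside those of the receptors. Of 16 EEC markers, 7 rose and 1 fell on day 7 and 10 rose on day 14, where 7.11% of all genes rose and 10.2% fell on day 7 and 3.23% rose on day 14. Their median log2 fold change was 0.60 and 0.87 against 0.02 and 0.00 for all genes. Chga, which encodes the granule protein chromogranin A, rose by 1.78 on day 14, and Chgb, another granule protein, by 1.57. Pax6, a transcription factor of the endocrine lineage, rose by 1.41 on day 14 and Pcsk1n, an inhibitor of prohormone processing, by 1.64, after a value of -0.18 on day 7. The marker that fell was Scg5, a chaperone of a prohormone convertase, with a log2 fold change of -1.39 on day 7 (edgeR adjusted p = 0.0130) and a value of -1.25 on day 14 that did not pass the test (0.0566). The study itself follows EEC genes in these samples, so this list is not independent evidence of its direction. The mean log2 CPM of the 16 markers was 0.60 higher in KO than in WT on day 7 and 0.90 higher on day 14, and 0.06 lower on day 2.

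A second fit therefore gave each receptor relative to this mean. On day 7 the value of Ffar1 was 0.70 with a standard error of 0.29 and lay just inside the threshold (edgeR adjusted p = 0.0494), where 1.81% of all genes were called higher, and the KO and WT libraries overlapped on this scale. The call was made in 3 of 7 other settings and lost in 4, with adjusted p of up to 0.123: with the replicate block, without the filter, with the groups compared alone and by DESeq2. Ffar4 was called lower, at -0.86, where 51.4% of all genes were lower, and it lost the call without KO replicate 1 (-0.74, adjusted p = 0.107), KO replicate 2 (-0.69, 0.121) or WT replicate 3 (-0.58, 0.192). The Ffar1 call relative to the markers was also lost without KO replicate 1 (0.47, adjusted p = 0.234), KO replicate 3 (0.62, 0.126), WT replicate 1 (0.61, 0.151), WT replicate 2 (0.76, 0.0688) or WT replicate 3 (0.72, 0.0930). On day 14 Ffar1 stood at 0.17 (95% interval -0.45 to 0.79), Sstr5 at 0.19 (-0.60 to 0.98) and Galr1 at 0.76 (-0.11 to 1.63), and none of them was called higher, as 0.698% of all genes were. Galr1 was called only without WT replicate 1, at 1.22 (adjusted p = 0.0230). Ffar2, Ffar3, Ffar4 and Gpr119 were lower relative to the markers on day 14, at -0.75, -0.96, -0.98 and -1.30 on the log2 scale, as were 71.5% of all genes. Without WT replicate 1 none of the 4 was called (-0.44, -0.59, -0.50 and -1.08, adjusted p = 0.237, 0.192, 0.180 and 0.110). Ffar2 also lost the call without KO replicate 1 (-0.55, adjusted p = 0.169), Ffar3 without KO replicate 3 (-0.82, 0.0913) and Ffar4 without KO replicate 2 (-0.81, 0.0603). Gpr119 lost it without KO replicate 2 (0.0641), KO replicate 3 (0.125) or WT replicate 3 (0.0988), and also without the filter (0.0661) and by DESeq2 (0.0570). The median of the 7 receptors was -0.34 and -0.75 on this scale, and that of all genes -0.58 and -0.89.

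The hormones whose release these receptors control were counted next, and the counts of this and the following lists stand beside the shares of all genes called, 7.11% higher and 10.2% lower on day 7 and 3.23% and 4.69% on day 14. Of 11 genes for ligands and hormones, 9 were tested; 7 rose and 1 fell on day 7, and 6 rose and 1 fell on day 14, with a median of 1.08 and 1.03. Pyy, which encodes peptide YY of the L cells, rose by 2.48 on day 7 and 1.98 on day 14. Cck, the hormone of I cells that drives gall bladder contraction, rose by 1.38 and 1.33, and Gip, the incretin of K cells, by 0.94 and 1.26. Sct, which encodes secretin, rose by 1.52 and 1.13. Ghrl, which encodes ghrelin, was the gene that fell on both days, with a log2 fold change of -0.67 and -0.90.

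Other receptors for nutrients and metabolites moved in both directions. Of 17, 9 were tested; 2 rose and 2 fell on day 7 and 2 rose on day 14, with a median of 0.48 and 0.30, where 7.11% of all genes rose and 10.2% fell on day 7 and 3.23% rose on day 14. Olfr558, an olfactory receptor for short branched-chain fatty acids known from enterochromaffin cells, had 18 to 32 counts in the KO libraries of day 7 and 16 to 40 in those of day 14, against at most 3 counts in any WT or KO day 2 library. It is 1 of the 2 genes that rose on each day, and it passed the filter on low counts only through the KO groups where it was high, so its place among the tested and called genes supports nothing about the list. It was at least 7.41-fold higher on day 7 and at least 9.60-fold higher on day 14, against a floor of 3 counts per WT library. Cnr1, the cannabinoid receptor, rose by 1.54 and 1.23. Tas1r3, a subunit of the sweet and umami taste receptors, fell on day 7 with a log2 fold change of -0.85, and on day 14 its value was -0.20. Gpr55, a receptor for lysophospholipids, fell on day 7 with -0.77 and stood at -0.62 on day 14.

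Among 14 nutrient transporters and metabolic sensors, all tested, 3 rose on day 7 and 4 on day 14 and none fell, with a median of 0.42 and 0.68, where 7.11% and 3.23% of all genes rose. Slc5a4b, a member of the sodium-glucose transporter family, rose by 1.99 and 1.79. Kcnj11, the pore of the ATP-sensitive potassium channel, rose by 1.74 on day 14. Slc27a4, a fatty acid transport protein of enterocytes, rose by 1.01 on day 7 and stood at 0.90 on day 14. Of 30 other receptors for gut peptides and transmitters, 15 were tested, none rose, and 2 fell on both days, where 10.2% and 4.69% of all genes fell. These were Adra2a, a Gi-coupled receptor for noradrenaline, with log2 fold changes of -1.77 and -0.95, and Chrm3, a Gq-coupled receptor for acetylcholine, with -1.28 and -0.88.

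The G proteins and effectors through which these receptors signal were mostly not called. Of 45 genes, 43 were tested; 3 rose and 8 fell on day 7, and 3 rose and 3 fell on day 14, with a median of -0.03 and 0.11. Over all genes, 7.11% rose and 10.2% fell on day 7 and 3.23% rose and 4.69% fell on day 14, and with so few calls the counts of this list are not a result about it. Adcy4, an adenylyl cyclase, rose by 1.06 and 1.19, and Rgs2, which shortens signalling by Gq, by 0.81 and 0.74. Itpr2, a receptor for inositol trisphosphate, fell with log2 fold changes of -1.06 and -0.79. Adcy8, a calcium-activated adenylyl cyclase, fell on day 7 with -1.35 and stood at -0.71 on day 14.

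**Figure D4:**
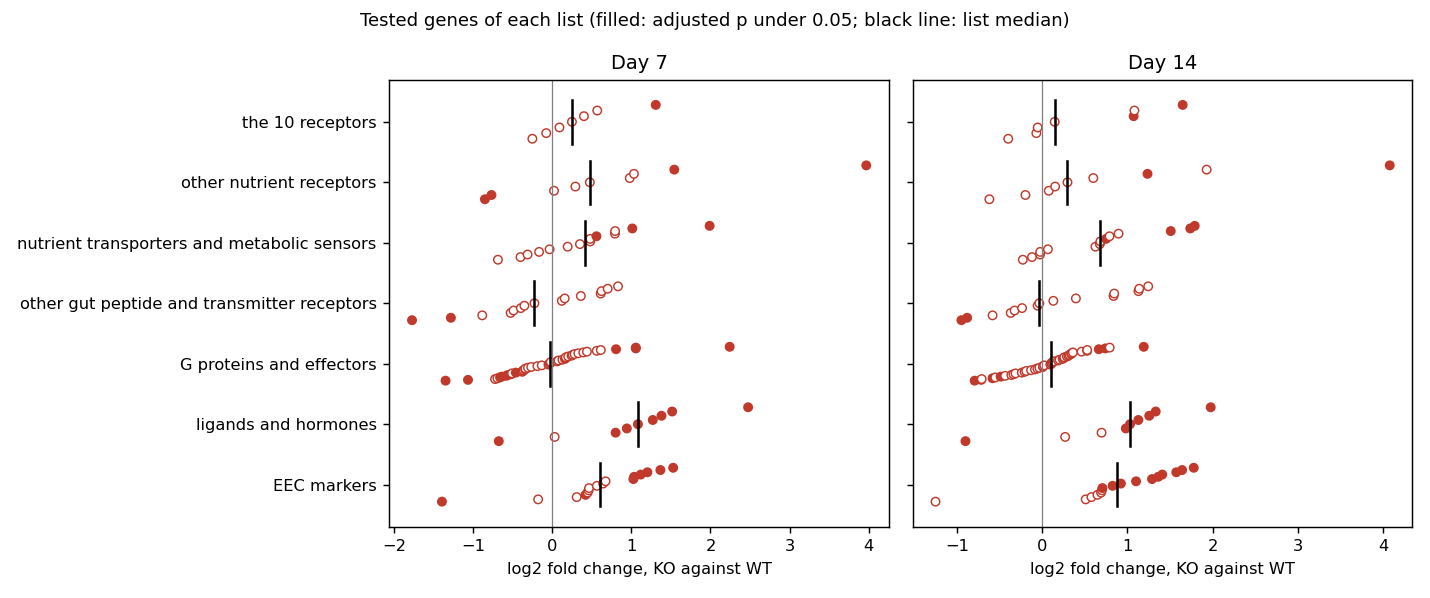
Log2 fold change of KO against WT on day 7 and day 14 for the tested genes of each list, with 1 point per gene, filled where the adjusted p is under 0.05, and a black line at the list median. The medians of the ligands and hormones lie at 1.08 and 1.03 and those of the tested receptors at 0.25 and 0.15.

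The genes whose pattern over the 18 libraries was most like that of each receptor were found by the root mean square difference of centred log2 CPM. For Ffar1 these were Gcg, which encodes proglucagon, the precursor of GLP-1 (0.22), Cpe, which encodes the granule enzyme carboxypeptidase E (0.22), and Neurod1, a transcription factor of the endocrine lineage (0.24), where Ffar1 itself had an SD of 0.56 over the libraries. For Sstr5 they included Cpe and Egfl8 (both 0.33), and for Galr1 they were Amy1, Trpm2 and Ttll7 (0.34 to 0.37). For Ffar2 they were Maged1, Enpp4 and Unc13a, for Ffar3 Trpc7, Inpp5d and Limd2, for Ffar4 Snn, Gm31718 and Tctn1, and for Gpr119 D16Ertd472e, Cxxc4 and Mlh3 (0.21 to 0.30). These 4 receptors varied less, with an SD of 0.37 to 0.46, so that a small difference is easier to reach. The 18 libraries share the group differences, and the likeness is a description.

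Markers of other cells that can express some of these receptors were measured in the same libraries. None of 16 tested leukocyte markers was called on day 7 or day 14, and their sum ranged from 127 to 227 CPM in KO and from 117 to 236 CPM in WT on day 7, and from 185 to 250 and 123 to 215 CPM on day 14. Of 11 enteric neuron and glia markers, 5 were tested, and their sum was 10.5 to 14.8 CPM in KO and 5.75 to 8.45 CPM in WT on day 7, and 11.4 to 13.02 and 5.21 to 8.99 CPM on day 14. Ret and Snap25, which are also known from EECs, rose on both days and S100b on day 7, and 1 tested marker of this list fell on both days. Of 10 stromal markers, which summed to 48.1 to 101 CPM in KO and 29.9 to 67.9 CPM in WT on day 7, Vim and Pecam1 rose on day 7 and none was called on day 14. Tuft cell markers summed to 29.2 to 68.6 CPM in KO and 74.9 to 86.2 CPM in WT on day 7, and to 94.2 to 114 and 89.9 to 109 CPM on day 14. Of 7 that were tested, Dclk1 fell on day 7 and none was called on day 14. Of the 11 epithelial markers, the stem cell genes Lgr5 and Olfm4 and the Paneth cell gene Lyz1 fell on day 7, and none was called on day 14. No pancreas marker of 5 tested was called, and Ins1, Prss1 and Ptf1a were at 0 in all libraries, while the sum of the 10 was 3.79 to 10.7 CPM in KO and 4.30 to 7.40 CPM in WT on day 14. The part of these cells in the receptor values was not tested.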

How the data were processed

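RNA was taken from small intestinal crypts of 18 mice, 3 per genotype and day, and sequenced as ribosomal RNA-depleted libraries. Per the labels and the study's methods, the authors aligned paired reads to mm10 with STAR 2.7.3 and counted them per gene with featureCounts 1.6.4, without regard to strand, without reads that map to several places, and with a read that overlaps several genes counted for each; the header of the deposited counts names GENCODE M23, which was followed here, whereas the study's methods name another GENCODE release. The values are whole-number counts per gene, not normalized. Groups were taken from the sample titles.

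The 20 genes that the study lists as differing between sexes were left out before normalization. The counts were scaled by TMM and fitted over all 18 libraries with edgeR 4.0.16 (R 4.3.3) by a robust quasi-likelihood fit with 1 mean per group, after filterByExpr with a minimum count of 10. A call is an adjusted p under 0.05. CPM uses the TMM-scaled totals, and FPKM is CPM per kilobase of the deposited exon length. SE is the log2 fold change divided by the square root of its F statistic, and 95% intervals use the moderated degrees of freedom. For values relative to EEC markers, the mean log2 CPM of 16 markers (prior count 2) was added to the offsets. The scripts were tested on simulated counts. The depth was 12844642 to 31493484 counts per library. Replicates are separate mice, and every 2 libraries of a group differed beyond sampling noise, so that both the depth and the spread between 3 mice limit the precision.

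The named genes are all 10 receptors, Prmt1, the genes of each list called on day 7 or 14 (at most the 4 with the largest log2 fold change on day 14), the 3 genes nearest in pattern to each receptor and genes that overlap one. Gal, Sst, Ghrl, Scg5, Alpi, Krt20, Ins1, Prss1, Ptf1a and Cd22 are named outside this rule, and some genes that the rule names are not reported here. The receptors and the lists were chosen with earlier results of these data known. The replicate numbers are shared between groups. The deviations of same-numbered KO and WT libraries had positive correlations in every pair on day 2 (0.048 to 0.381) and day 14 (0.159 to 0.227). On day 7 they did not (-0.159 to 0.206). Although the controls were matched littermates, no source ties the numbers to litters. DESeq2 1.42.0, other scaling, other filters, a replicate block and leaving out each library were tried as alternatives. Sex is not in the labels and was not modelled.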

Additional observations from a re-analysis of the deposited data

Results flagged for a closer look

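The effect of the knockout on Ffar1 passed the threshold for a difference between 2 days under the same contrast, narrowly. Its log2 fold change was -0.17 on day 2 and 1.31 on day 7, a difference of 1.48 with a standard error of 0.41 (edgeR adjusted p = 0.0450 for the difference itself). The call was made in 5 of 7 other settings and lost with the replicate block (adjusted p = 0.0501) and with the groups compared alone (0.0722), and it was made in 1 of 12 fits that left out a library. On day 7 each of the 3 KO libraries lay above all 3 WT libraries, and on day 2 the groups overlapped. The day 2 mice had received 2 injections of tamoxifen and the day 7 mice 5, so the number of injections and the time since the first cannot be told apart. Loss of PRMT1 and activity of the Cre, which only the KO mice carried, cannot be told apart either.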

How the results depend on the processing

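The number of receptors called was recomputed under 8 alternatives and with each library left out. With only genes of a mean count of at least 50, 2 receptors (Ffar2 and Ffar4) could be tested, and 0 were called on day 7, 0 on day 14, 0 for the difference between days 7 and 2, and 2 relative to EEC markers on each of days 7 and 14; Ffar2 on day 7 was then called lower, at -0.75 (adjusted p = 0.0248), against -0.51 (0.161) with the usual filter. Relative to EEC markers on day 7, 1 receptor (Ffar4) was called in place of 2 without a filter on low counts, in a fit of the groups compared alone and by DESeq2. The fit of the groups compared alone called 0 for the difference between days 7 and 2 (Ffar1, adjusted p = 0.0722). With the replicate number as a block, the difference between days 7 and 2 gave 0 receptors (Ffar1, 0.0501). The day 7 values relative to EEC markers gave 1, and no other receptor count changed. On day 14, a day on which every same-numbered pair had a positive correlation, Ffar1 and Galr1 were called as before. Leaving out 1 library gave 0 to 2 receptors on day 14, 0 to 1 for the difference between days 7 and 2, and 0 to 2 and 1 to 4 relative to EEC markers on days 7 and 14. Where 2 libraries of a group were left, their spread was taken from all groups. The cause was not tested for these changes other than the smaller number of genes or libraries.

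Over the 7 alternatives that tested them, Ffar1 on day 7 (log2 1.28 to 1.32, adjusted p 0.000768 to 0.0284), Ffar1 on day 14 (1.06 to 1.09, 0.0166 to 0.0465) and Galr1 on day 14 (1.63 to 1.67, 0.00434 to 0.0497) were called in 7 of 7, and no value of a called receptor changed sign. Counts over all genes moved as follows. Between WT days 2 and 7, 118 genes were called, against 1012 without a filter, 494 at a mean count of 50, 288 with TMM factors computed without the 20 most abundant genes, 0 with the block, 576 with the 2 groups alone and 1455 by DESeq2; between WT days 2 and 14, 343 against 1011 without a filter, 770 at a mean count of 50, 1259 with the block, 28 with the groups alone and 1373 by DESeq2; between WT days 7 and 14, 17 against 59 without a filter, 4 with the block, 4 with the groups alone and 49 by DESeq2. For KO against WT on day 2 the 7 calls became 16 without a filter, 2 at a mean count of 50, 3 with the groups alone and 13 by DESeq2, and for the difference between days 7 and 2 the 934 became 1402 by DESeq2. From day 7 to day 14 the 0 calls became 2 without a filter, 1 with the block and 2 by DESeq2. With 1 library left out, KO against WT called 2051 to 4117 genes on day 7, 1041 to 1334 on day 14 and 3 to 4 on day 2, the difference between days 7 and 2 called 431 to 1295, and the WT days 0 to 535, 22 to 712 and 0 to 10. Depth is also a limit: Gpr119 had at most 17 counts in a library, and Casr, Gpbar1 and Gpr142 at most 12.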
